A study of Mus musculus with 12 samples.

Results

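The genes described here are 10 factors tied to the self-renewal of spermatogonia: Zbtb16, Id4, Etv5, Bcl6b, Lhx1, Sall4, Taf4b, Foxo1, Egr4 and Glis3. They were listed by name, and every peak overlapping their RefSeq spans on mouse build GRCm38 was collected from 6 lists of N6-methyladenosine (m6A) peaks. All 10 were among the 21900 protein-coding genes of the gene table, and 9 of them were among the 12906 genes that held a peak in any list. Together they held 74 of the 118075 peaks.

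The series title and type name methylated DNA immunoprecipitation and methylation profiling, while the protocol describes poly(A) RNA pulled down with an antibody to m6A; peaks are read here as RNA m6A, after the protocol. The 6 lists come from fragmented RNA, 3 libraries of mouse spermatogonial stem cells (SSCs) and 3 of neural stem cell-like cells (iNSCs) that were made from SSCs. SSCs, labelled as from testis, were kept on mitotically inactive STO fibroblast feeders with 20 ng/mL GDNF, 20 ng/mL EGF, 10 ng/mL basic FGF and 10 ng/mL LIF. For iNSCs, SSCs were plated on laminin, given 1 µM retinoic acid in SSC medium for 24 h and moved to a neural medium with 10 µM SB431542, a TGF-β receptor kinase inhibitor, and 20 ng/mL basic FGF. GDNF is not named in that neural medium. Cell state and culture medium cannot be told apart, and strain, age, genotype and time in the neural medium were not given in the sources used here. Groups follow the sample titles, since the cell type field names the opposite cell type in all 12 samples.

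SSCs are the germ cells of the testis that renew themselves and feed sperm production throughout adult life. GDNF from somatic neighbours binds the RET and GFRA1 receptors on these cells, and Etv5, Bcl6b, Lhx1 and Id4 are known as genes that respond to it. Zbtb16 (PLZF), Sall4 and Foxo1 hold the undifferentiated state by other routes, and Taf4b supplies a germ cell variant of a subunit of the general factor TFIID. m6A is a methyl mark laid on adenosines of mRNA during transcription, often in long exons and near the stop codon, and it affects splicing, translation and decay. A peak needs both the transcript and its mark, so a missing peak can mean either is missing, and fewer cells of a type and less RNA per cell cannot be told apart.

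Where a peak reached the first base of a gene, the transcribed letters under it could be read from the RefSeq start windows of build GRCm38.p6, which hold 6 of the 10 genes (not Zbtb16, Bcl6b, Sall4 or Taf4b). The first 30 transcribed bases are shown for 3 genes whose start lay under a peak and for 2 whose start did not. Capitals mark bases inside a peak of at least 1 list.
Lhx1: AACAGCCAGGAGCAGTGACCGAGCCGCTGG
Foxo1: AGGGGCGGGGCGGCGCGCGCGCCGCCGCGG
Etv5: GCGGCCCAGCCCGCCACGGAGGCGCGCAGG
Id4: gctgttgagctgggaggcgcggttggaagt
Egr4: gagccctgttgcactttggagaagccagga
The Lhx1 stretch is chr11:84525505-84525534 on the minus strand and lay under a peak in 3 of 3 SSC lists. The Foxo1 stretch is chr3:52268337-52268366 on the plus strand and lay under a peak in SSC replicates 2 and 3. The Etv5 stretch is chr16:22439541-22439570 on the minus strand and lay under a peak in SSC replicate 3 alone. The Id4 stretch, chr13:48261116-48261145 on the plus strand, and the Egr4 stretch, chr6:85513560-85513589 on the minus strand, lay under none. The letters GGAC, the core of the usual m6A sequence context, were searched in the first 50 transcribed bases. They were in none of the 7 start windows of these 6 genes on the transcript's strand, against 18.9% of all 32851 windows, and on the other strand in that of Glis3 alone, against 17.4% of all windows. A match would describe letters only, and these windows hold a small part of each peak.

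Of the 10 genes, 7 had a peak in all 3 SSC lists and in no iNSC list: Zbtb16, Sall4, Egr4, Glis3, Id4, Lhx1 and Taf4b. This pattern is called SSC-only below, and it was met by 11.4% of the 12906 genes with a peak. The reverse pattern, iNSC-only, was met by 0 of the 10 genes and by 2.13% of genes with a peak. Foxo1 had a peak in all 6 lists, as did 30.6% of genes with a peak. Etv5 had peaks in 2 SSC and 3 iNSC lists, and Bcl6b had none in any list. The lists hold no read counts, so depth is unknown, and these calls carry no test per gene.

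**Figure D1:**
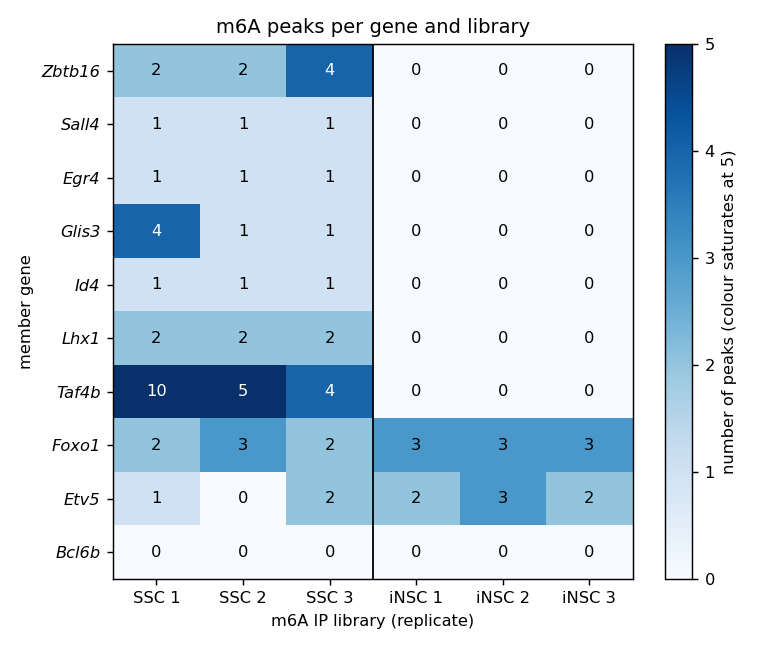
Number of m6A peaks in each of the 10 genes (rows) in each library (columns), with the number printed in each cell and the colour saturating at 5. The 7 upper rows hold peaks in the SSC columns alone, Foxo1 holds 2 or 3 in every column, and Taf4b in SSC replicate 1 has the highest number, 10.

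The share of these genes with a peak was 90%, 80% and 90% in SSC replicates 1, 2 and 3 (86.7% ± 5.77, SD, n = 3), and 20% in each iNSC list. Over all protein-coding genes the shares were 44.6%, 36.8% and 44.7% in SSCs and 29.1%, 31.4% and 31.2% in iNSCs. The share of the self-renewal genes thus lay above that of all genes in every SSC list. In each iNSC list it came from the same 2 genes, Foxo1 and Etv5. With 10 genes, the iNSC share is too coarse to be set apart from that of all genes. The median difference in mean number of peaks, SSC minus iNSC, was 1 over the 9 genes with a peak and 0.33 over all genes with a peak. SSC lists were also longer, with 19728 to 27597 peaks against 13913 to 16060 in iNSCs. When every list was cut to its 13913 best-scoring peaks, 6 of the 10 genes were still SSC-only, against 7.03% of genes with a peak at that length. The gene lost was Sall4. At that length the iNSC-only pattern was met by 0 of the 10 genes and by 6.72% of genes with a peak, so over all genes the SSC-only and iNSC-only shares were close at equal length.

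Exact two-sided permutation tests of the number of peaks per gene, 3 libraries against 3, cannot add to the SSC-only call. Peaks in every SSC list and in no iNSC list always give the smallest p the design allows. The 7 SSC-only genes therefore had an exact permutation p = 0.1 (adjusted 0.476 over 12906 genes). That smallest p was reached by 21% of genes with a peak, counting both directions, and with 3 libraries a group no gene can pass 0.05. For bases covered by peaks the same 7 genes, again through their call, and Etv5 were at an exact permutation p = 0.1 (adjusted 0.299). So were 33.4% of genes with a peak. The labels number the replicates without naming separate cultures, so these p-values measure the spread between libraries, which may be technical.

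Zbtb16, Sall4, Egr4 and Glis3, which encode zinc finger factors, were SSC-only, while Bcl6b, a zinc finger gene described below with the GDNF-responsive factors, had no peak. Zbtb16 encodes PLZF, a transcriptional repressor with a BTB domain without which the stem cell pool is lost with age. On chromosome 9 (48651797 to 48836225, minus strand) it held 2, 2 and 4 peaks in SSC replicates 1, 2 and 3, covering 723, 3244 and 4662 bases. Each SSC list had a peak of 169 bases from 48836054 to 48836222, with its upstream edge 3 bases inside the gene start and the same edges in all 3 lists. Its score percentiles within the lists were 81.0, 53.7 and 68.7.

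The other shared Zbtb16 region lay near the opposite end, from 48654297 to 48657371. SSC replicates 2 and 3 held it as 1 peak of 3075 bases, and replicate 1 held only its upstream 554 bases. Its percentiles were 98.1, 40.4 and 88.1, so replicate 2 was low and replicate 1 was at the capped score. Replicate 3 alone had a further pair of peaks, one of 1357 bases at 3126 bases from the gene start and one of 61 bases at 92664 bases. No iNSC list had a peak at any of the 4 regions.

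Sall4 encodes a zinc finger factor that binds PLZF and is also used by pluripotent cells. On chromosome 2 (168748332 to 168767201, minus strand) each SSC list held 1 peak of 2367 bases with the same edges, 168754434 to 168756800, which is internal to the gene. Its scores, deposited without a unit, were 622.93, 54.15 and 2454.93, and its percentiles 82.8, 3.37 and 94.4. Replicate 2 stood far below the other lists, just above the lowest score listed (50). With only peaks scoring at least 100, a limit chosen after the data were seen, Sall4 was no longer SSC-only and the other 6 genes still were. Of all genes with a peak at that limit, 9.16% were SSC-only.

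Egr4 encodes an early growth response zinc finger factor whose loss makes male mice infertile. The gene is short, chromosome 6 from 85511121 to 85513589 on the minus strand, and each SSC list held 1 peak that ran to within 1 base of the gene's far end. That peak was 601 bases wide in replicate 1 and 1822 in replicates 2 and 3, which is 24.3% and 73.8% of the span. Its percentiles were 84.6, 60.4 and 90.6, lowest in replicate 2.

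Glis3, a GLI-related zinc finger gene, has a span of 421415 bases on chromosome 19 (28258851 to 28680265, minus strand). It held 4, 1 and 1 peaks in the SSC lists, covering 5783, 1249 and 1114 bases, and it was SSC-only although none of its 4 regions was in all 3 SSC lists. The region from 28530873 to 28531986 was in replicates 1 and 3 (percentiles 92.5 and 89.3). The region from 28261348 to 28263115, near the gene end, was in replicates 1 and 2 (percentiles 64.4 and 65.6). The presence call of Glis3 thus rests on different sites in replicates 2 and 3.

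**Figure D2:**
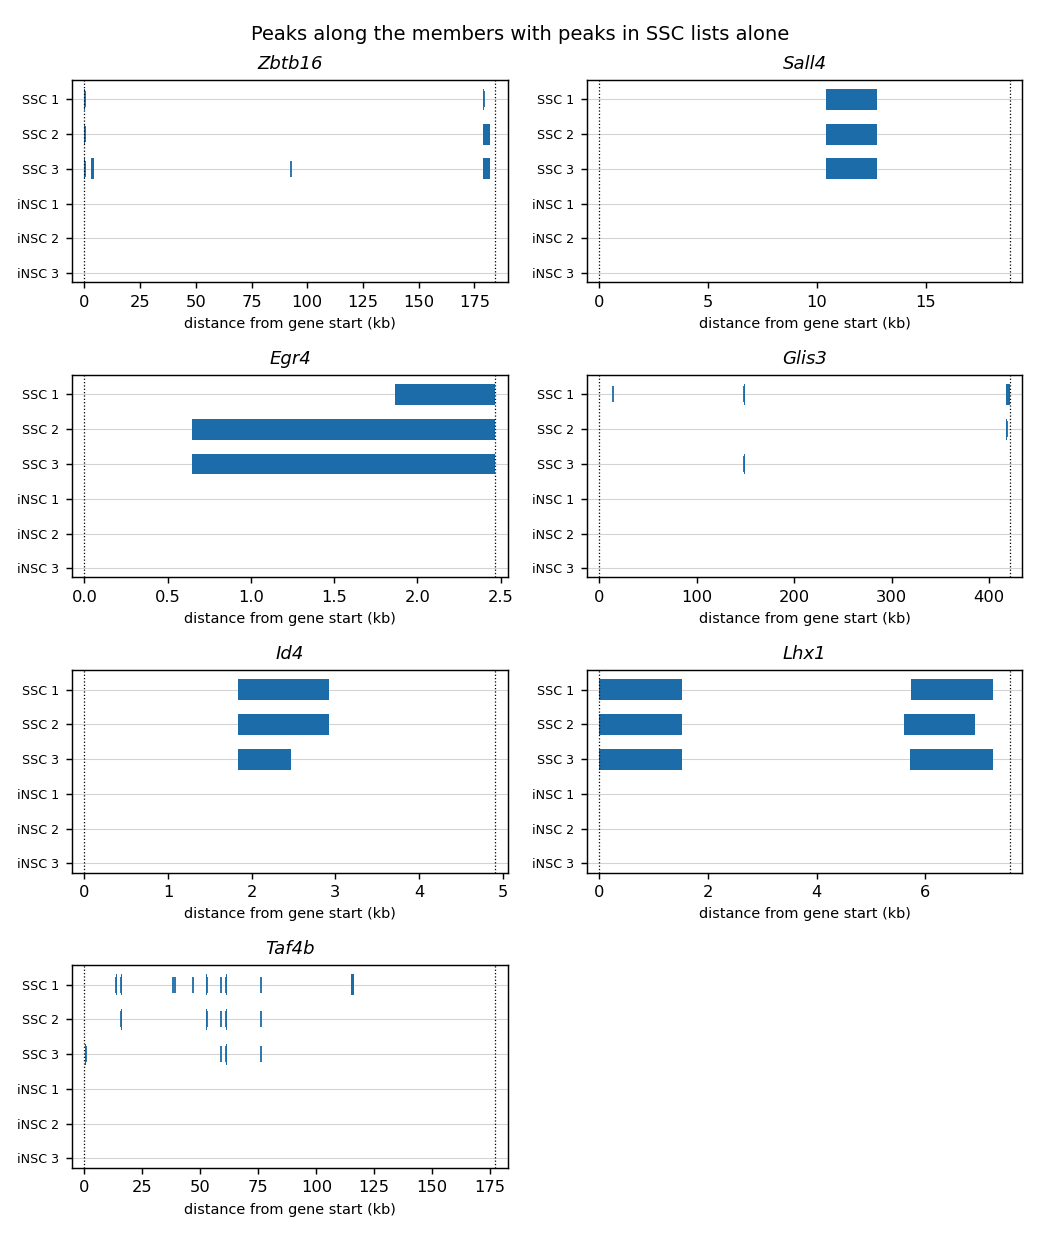
Peaks of the 7 SSC-only genes in each of the 6 libraries, as bars to scale at their distance from the gene start in kb, with a tick at each peak's centre so that narrow peaks can be seen. Dotted lines mark the gene start and end. Sall4 and Lhx1 show long bars at like places in the 3 SSC rows, Taf4b shows 4 to 10 peaks, 17 of the 19 under 200 bases wide, and every iNSC row is empty.

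Among the GDNF-responsive factors, Id4 and Lhx1 were SSC-only. Id4 encodes an inhibitor of DNA binding by basic helix-loop-helix factors, and a bright Id4 reporter is known to mark the most stem-like spermatogonia. On chromosome 13 (48261116 to 48266028, plus strand) each SSC list held 1 peak starting at 48262952, 1836 bases from the gene start. It was 1085 bases wide in replicates 1 and 2 and 633 in replicate 3, with percentiles of 95.6, 84.5 and 87.9. All 3 values lay in the upper part of their lists.

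Lhx1 encodes a LIM homeobox factor that is also used in kidney and in the head organizer of the embryo. On chromosome 11 (84517975 to 84525534, minus strand) each SSC list held 2 peaks that together covered 3052, 2840 and 3064 bases, 40.4%, 37.6% and 40.5% of the span. One peak of 1530 bases, 84524006 to 84525535, reached the gene start and had the same edges in 3 lists (percentiles 84.7, 85.0 and 97.6). It is the peak over the start sequence shown above. The other, between 84518284 and 84519928, had different edges in each list and percentiles of 89.3, 24.1 and 87.3. Replicate 2 was again the low one.

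Etv5 encodes an ETS factor needed to keep the stem cell pool, and it did not follow Id4 and Lhx1. On chromosome 16 (22381313 to 22439570, minus strand) it held 1, 0 and 2 peaks in the SSC lists (1.00 ± 1.00, SD, n = 3) and 2, 3 and 2 in the iNSC lists (2.33 ± 0.58, n = 3). The numbers overlapped between the groups (exact permutation p = 0.3, adjusted 0.831). Covered bases were 288, 0 and 491 in SSCs and 1400, 2931 and 548 in iNSCs, and these did not overlap (exact permutation p = 0.1, adjusted 0.299). The difference, SSC minus iNSC, was -1367 bases. It was -714 without iNSC replicate 2 and -572 at equal list length (exact permutation p = 0.2). With only the better-scoring 50% of peaks it was -312 (exact permutation p = 0.7). Its sites also differed. The region from 22401672 to 22401931, 260 bases wide, had the same edges in 3 of 3 iNSC lists and in 0 of 3 SSC lists, with percentiles of 19.5, 24.7 and 37.7.

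A second Etv5 region of 288 bases, 22411633 to 22411920, was shared between the groups. It was in SSC replicates 1 and 3 (percentiles 57.2 and 42.4) and in iNSC replicates 2 and 3 (7.49 and 58.5), with the same edges in all 4. The region at the gene's far end, 22381309 to 22383691, was in iNSC replicates 1 and 2 (percentiles 65.8 and 3.32). The region over the gene start, 22439517 to 22439719, was in SSC replicate 3 alone (percentile 64.6) and reached upstream of the RefSeq start. Bcl6b, a BCL6-related BTB zinc finger gene on chromosome 11 (70224127 to 70229798), held 0 peaks in each of the 6 lists.

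Taf4b, on chromosome 18 (14783201 to 14960424, plus strand), held 10, 5 and 4 peaks in SSC replicates 1, 2 and 3 (6.33 ± 3.21, SD, n = 3) and none in iNSCs. Among genes with a peak in the same list, that was more than in 97.2% in replicate 1, 88.5% in replicate 2 and 80.8% in replicate 3. The peaks were narrow: 17 of the 19 were under 200 bases wide, and the covered bases were 2486, 527 and 658. They formed 11 regions spread from 364 to 114763 bases after the gene start, with none in the last 2000 bases. The 3 regions in all SSC lists lay at 58704, 61213 and 75971 bases from the gene start and were 126, 57 and 105 bases wide, with the same edges in each list.

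The Taf4b region of 126 bases had percentiles of 86.7, 79.6 and 76.7, all in the upper part of their lists. The region of 57 bases had 79.1, 83.6 and 50.7, and the region of 105 bases had 87.8, 44.0 and 68.7. The single wide Taf4b peak, 1398 bases in replicate 1 from 14897964 to 14899361, lies inside the span of the long non-coding RNA gene 4930543D07Rik (14894092 to 14899364), so its gene is uncertain. None of the other 73 peaks overlapped a non-coding or pseudogene entry of the table.

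Foxo1, a forkhead factor restrained by PI3K and AKT signalling, was the gene of the 10 with peaks in every list. On chromosome 3 (52268337 to 52350109, plus strand) it held 2, 3 and 2 SSC peaks, with 3 in every iNSC list (exact permutation p = 0.4, adjusted 0.831). The covered bases were 2285, 3423 and 3295 in SSCs (3001 ± 623, SD, n = 3) and 3314, 2813 and 3195 in iNSCs (3107 ± 262, n = 3). The groups overlapped (exact permutation p = 0.9). Without SSC replicate 1 the difference in covered bases changed sign, from -106 to 252 bases (SSC minus iNSC). In the better-scoring 50% of each list it was 1007 bases.

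The best score ranks of Foxo1 did not overlap between the groups. In SSC replicate 3 the best peak lay in a different region from that in the other lists. Its best peak stood at percentiles 98.1, 90.0 and 89.1 in SSCs, against 76.3, 74.8 and 75.3 in iNSCs, a difference of 16.9 points (exact permutation p = 0.1, the smallest possible). Ranked among the best peaks of genes instead of all peaks, the difference was 26.8 points (exact permutation p = 0.1). The scores themselves overlapped, at 3100, 2230.55 and 1268.03 in SSCs and 1588.13, 1774.57 and 1655.71 in iNSCs. The capped score of 3100 or more was held by 15.0% to 17.6% of iNSC peaks and 3.73% to 7.56% of SSC peaks, so the same score ranks lower in an iNSC list. Egr1, at the capped score in all 6 lists, stood at percentiles 98.1, 96.1 and 97.6 in SSCs and 92.3, 90.9 and 91.8 in iNSCs. A gene without any difference in capped score can thus also reach this smallest p. The part of the cap in the difference of ranks was not tested. The share of all genes whose ranks separate the groups in this way was not computed.

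Foxo1 peaks fell in 3 regions. The first, 52268337 to 52269422, ended at the same base in each of the 5 lists that held it. In SSC replicates 2 and 3 it began at the first base of the gene, shown above, and in iNSC replicates 1, 2 and 3 it began 58, 465 and 89 bases further in. Its percentiles were 8.75 and 85.7 in these SSC libraries, against 12.6, 8.91 and 17.8 in iNSC replicates 1 to 3, so SSC replicate 3 alone was high. The second region, 52345039 to 52346390, had the same edges in SSC replicates 1 and 2 (percentiles 98.1 and 90.0) and the 3 iNSC lists (76.3, 74.8 and 75.3). The third began at 52346996 in all 6 lists, and it ran to 52349204 in SSC replicate 3, which lacked the second. Its percentiles were 76.7, 65.4 and 89.1 in SSCs and 41.7, 52.5 and 36.3 in iNSCs, without overlap. How many of all regions separate in this way was not computed.

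**Figure D3:**
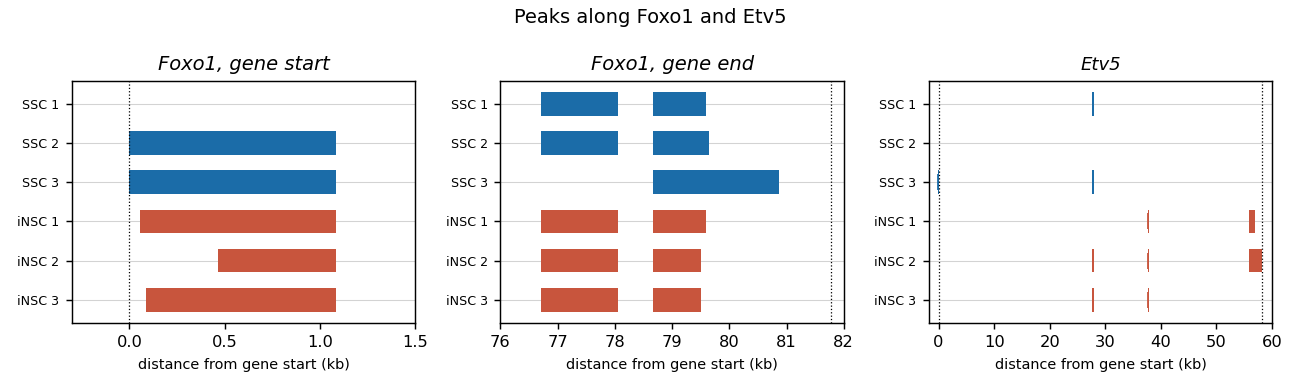
Peaks of Foxo1 near its start and near its end, and of Etv5 over its whole span, in the 6 libraries, as bars to scale at their distance from the gene start in kb, with dotted lines at the gene start and end. Foxo1 bars sit at like places in both groups, while the Etv5 peak near 38 kb is in the 3 iNSC rows and no SSC row.

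**Figure D4:**
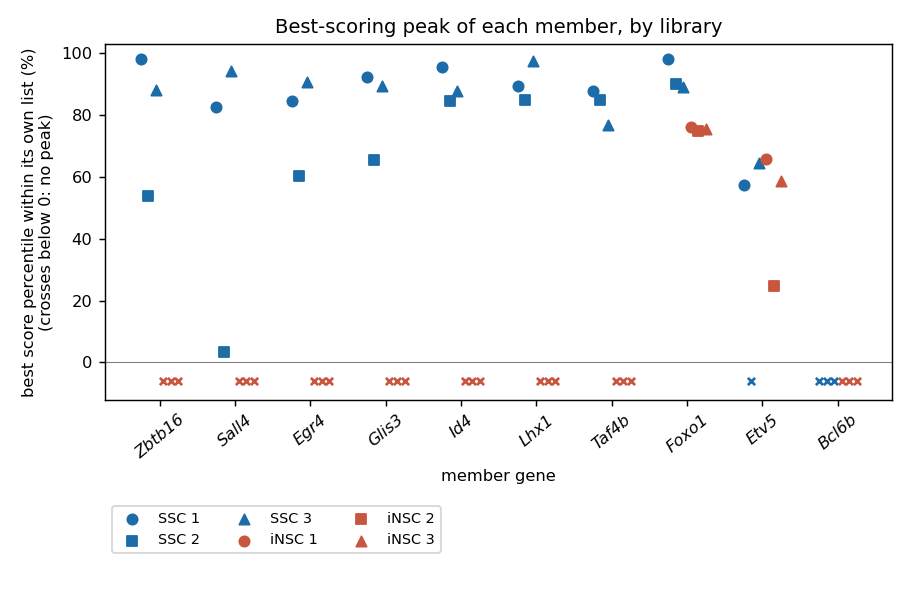
Best score percentile of each gene within its own list, by library, with crosses below 0 for lists without a peak. In Sall4 the square of SSC replicate 2 stands at 3.37, and in Foxo1 the 3 SSC points lie above the 3 iNSC points.

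By site, the 74 peaks merged into 31 regions, of which 10 were in all 3 SSC lists and no iNSC list. Over all 48292 regions of the series 5.59% met this rule. The 10 were 3 in Taf4b, 2 each in Zbtb16 and Lhx1, and 1 each in Sall4, Egr4 and Id4. The Etv5 region at 22401672 was the 1 region in all iNSC lists and no SSC list, a pattern of 3.42% of all regions. The third Foxo1 region was the only one of the 31 in all 6 lists, and 11 regions were in a single list.

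Many peaks of these genes were wide, which was not particular to them. Their 24, 16 and 18 SSC peaks covered 18670, 16557 and 18106 bases. The 41, 26 and 44 SSC peaks of the family relatives described below covered 32371, 23897 and 40555 bases, a like number per peak. The share of the relatives' peaks that were at least 1000 bases wide was not computed. Of the 24, 16 and 18 peaks in the SSC lists, 37.5%, 56.2% and 50% were at least 1000 bases wide, against 9.05%, 11.4% and 9.32% of all peaks placed in genes of those lists. Without Taf4b the shares were 57.1%, 81.8% and 64.3%. In the iNSC lists, where only Foxo1 and Etv5 contributed, 3 of 5, 2 of 6 and 1 of 5 peaks were that wide, against 24.0% to 27.4% of all peaks. Of the 58 SSC peaks, 10 began within 500 bases of the gene start, against 8.21% to 13.3% of all genes' peaks in the SSC lists. A further count, also 10, ended within 2000 bases of the gene end, near the 19.9%, 17.2% and 18.8% of all genes' peaks. Of the 20 regions held by more than 1 list, 12 had 1 set of edges in every list that held them. Of the 58 SSC peaks 62.1% had the same edges in another list. By SSC list these were 50%, 81.25% and 61.1%, against 35.6%, 51.9% and 41.6% of all genes' peaks. In the iNSC lists 2 of 5, 3 of 6 and 3 of 5 peaks, all of Foxo1 and Etv5, had such edges. The shares of all genes' peaks were 69.1%, 63.0% and 62.6%, and so few peaks give no direction.

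Of 24 family relatives of the 10 genes, 22 had a peak. Of these, 6 were SSC-only (11.4% of all genes with a peak), 1 was iNSC-only (2.13%) and 7 were present in every list, near the share of all genes (30.6%). The SSC-only relatives, in 3 of 3 SSC libraries, were Zbtb32, the homeobox genes Lhx2 and Lhx5, Sall1, Sall3 and the forkhead gene Foxo6. The spalt genes Sall1 (2, 1 and 4 peaks) and Sall3 (3 in each SSC list) thus shared the call of Sall4, while Sall2 had 1 peak in SSC replicates 2 and 3 alone. Lhx5 had 1 peak in each SSC list, with percentiles of 80.9, 90.4 and 86.0.

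Other families split. Egr1, Egr2 and Egr3 each had a peak in all 6 lists, whereas Egr4 was SSC-only. Egr1, an immediate-early gene, was at the capped score in every list. Foxo3 had 2, 1 and 3 peaks in SSCs and 2, 2 and 4 in iNSCs, and was in all 6 lists like Foxo1. Taf4, the broadly expressed counterpart of Taf4b, held 3, 2 and 7 SSC peaks, and every iNSC list held 1. Etv1 was iNSC-only with 3, 3 and 4 peaks, and Etv4 held 2, 0 and 1 SSC peaks without any in iNSCs, so that the ETS relatives Etv1, Etv4 and Etv5 had different patterns. Bcl6, the relative of Bcl6b, held 2, 0 and 1 SSC peaks, with 1 in every iNSC list. Id2 had peaks in 2 lists of each group, Id3 in SSC replicate 3 alone, and Glis1 in SSC replicates 1 and 3. Glis2 had peaks in SSC replicate 3 and iNSC replicates 2 and 3. Foxo4 had them in SSC replicate 3 and all 3 iNSC lists. Zbtb7a and Zbtb20, relatives of Zbtb16, were in all 6 lists, unlike Zbtb32. Id1 and Lhx9 had no peak in any list.

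Among 30 other genes of undifferentiated spermatogonia, 25 had a peak and 7 were SSC-only: Lin28b, Pou3f1, Eomes, T, Shisa6, Epcam and Nefm, against 11.4% of all genes with a peak. The iNSC-only pattern was met by 0 of them (2.13% of all genes). The share with a peak was 56.7% ± 5.77 in SSCs and 10% in each iNSC list (n = 3 each), against 42.0% ± 4.51 and 30.6% ± 1.26 of all protein-coding genes. Pou3f1, a POU factor that responds to GDNF, had 1 peak in each SSC list at percentiles of 91.0, 96.1 and 99.99. The best peaks of Epcam and Nefm stood at 93.8 or higher in each SSC list, and those of Lin28b at 61.2 to 71.9. Other calls rested partly on low ranks in SSC replicates 1 to 3. These were Shisa6 (30.1, 2.05 and 66.2), Eomes (68.2, 8.65 and 73.4) and T (12.2, 80.3 and 25.4). Gfra1, the GDNF co-receptor, had a peak in iNSC replicate 3 alone (percentile 1.44), and Ret, the signalling receptor, had 2 peaks in SSC replicate 1 alone. Both receptor genes therefore lacked the pattern of Id4 and Lhx1.

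Of 21 genes on the route from GDNF to the nucleus, 18 had a peak, 4 were SSC-only, Gdnf and Mycn among them, and 0 were iNSC-only, against 11.4% and 2.13% of all genes with a peak. A further 6 were present in every list, near the share of all genes (30.6%). Gdnf, the ligand itself, had 2, 1 and 2 peaks in SSCs, and Mycn, a MYC family transcription factor, had 1, 1 and 3. The shared ones included the kinases Yes1 and Fyn, the PI3K subunits Pik3ca and Pik3r1 and the exchange factor Sos1. The share with a peak was 66.7% ± 8.25 in SSCs and 50.8% ± 2.75 in iNSCs (n = 3 each), above the 42.0% and 30.6% of all protein-coding genes.

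**Figure D5:**
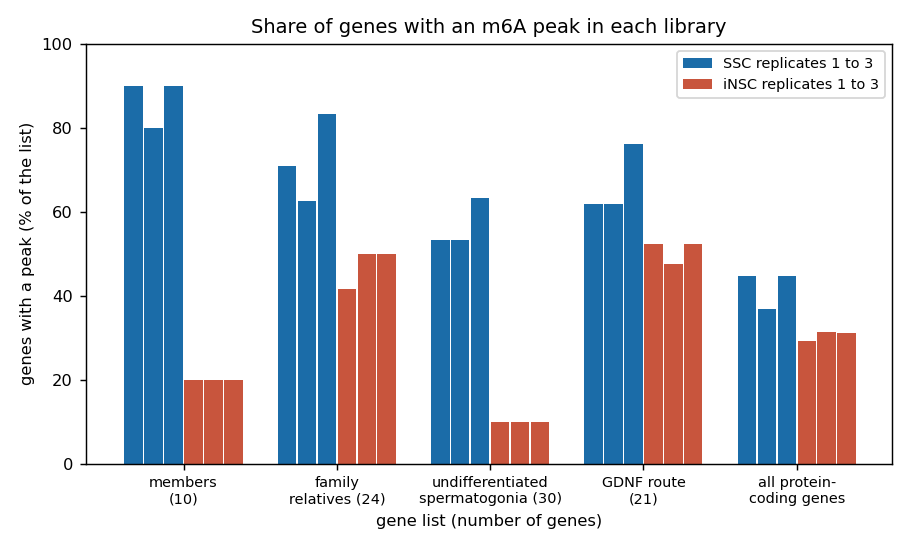
Percent of genes with an m6A peak in each library, for the 10 self-renewal genes, 3 further lists and all protein-coding genes. Bars of SSC replicates 1 to 3 come first in each group and iNSC replicates 1 to 3 follow. The self-renewal genes stand at 80% to 90% in SSCs and 20% in iNSCs.

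Markers of cell types were read the same way. Of all protein-coding genes, a mean of 42.0% had a peak in SSC lists and 30.6% in iNSC lists. Of genes with a peak, 11.4% were SSC-only and 2.13% iNSC-only. Of 7 germ cell markers, 6, 4 and 5 had a peak in the SSC lists, covering 2906 to 4501 bases, and none did in the iNSC lists. Dnd1 had none anywhere. Of 7 neural stem cell markers 3 had a peak in each SSC list (42.9%, 7048 to 8461 bases) and 2 in each iNSC list (28.6%, 5556 to 6791 bases). Both shares were near those of all protein-coding genes. Sox1, Fabp7 and Hes5 were at 0 in every list. Pax6 was iNSC-only, Sox2 and Msi1 were SSC-only, and Nes was in all 6 lists at percentiles of 98.1, 96.1 and 97.6 in SSCs against 4.45 to 35.0 in iNSCs. Fibroblast and feeder markers had a peak for 5, 4 and 7 of 7 genes in SSCs (2703 to 5431 bases) and 4, 3 and 4 in iNSCs (5826 to 8062 bases). Sertoli cell markers had one for 3, 4 and 2 of 4 genes in SSCs (2627 to 4811 bases) and 1 of 4 in each iNSC list (1989 to 2974 bases). Gata4 was SSC-only, whereas Sox9 had a peak in all 6 lists. Wt1 had peaks in SSC replicates 1 and 2 alone, and Amh in SSC replicate 2 alone. Of 4 Leydig cell markers, Hsd3b1 had a peak in SSC replicate 3 alone, and all 4 macrophage markers were at 0. The part of feeder or somatic cells in the peaks of the 10 genes was not tested.

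For 4 of the genes, the protein-coding genes with the most similar covered bases over the 6 lists were sought, by the summed absolute difference. Nearest to Zbtb16 were Bcr, Tril and Cracd, at 1392, 1701 and 1832 bases, against a total of 8629 bases for Zbtb16. Nearest to Sall4 were Epop, Zfp422 and Fam90a1b, at 111, 329 and 332 of 7101 bases. Epop, which encodes a partner of Polycomb complex PRC2, had 1 peak of 2330 bases in each SSC list. Nearest to Etv5 were Ocstamp, Frk and Dab2, at 1286, 1347 and 1611 of 5658 bases, and Ocstamp and Frk had peaks in iNSC lists alone. Nearest to Foxo1 were Fam133b, Srrm1 and Bcl9l, at 1366, 1419 and 1505 of 18325 bases.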

How the data were processed

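The authors deposited 1 peak list per immunoprecipitation library (3 SSC, 3 iNSC). The 6 input libraries were not analysed here. Per the submitters' processing notes, the tools were HISAT2 2.0.4 and cutadapt 1.9.3, with build mm9. A peak caller was not given in the sources used here. Each peak's score, deposited without a unit, was used to rank peaks within a list. Exceptions are a limit of 100 and the share of peaks at the capped score, which set scores of different lists side by side, and scores given beside single genes. Depth is unknown.

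Coordinates are given on GRCm38, 1-based, whatever the notes say: 2.45% to 6.19% of peak starts fell on a gene start of the GRCm38.p6 table, against 0 for shifted positions. A peak went to the protein-coding gene it overlapped by at least 1 base, or, over several genes, to the gene on its strand. A percentile is the mean rank of a score in its list. The gene table has no exons. Group differences were tested by exact two-sided permutation with Benjamini-Hochberg adjustment over 12906 genes in Python 3 with NumPy, pandas and SciPy, and the code was tested on simulated data.

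All 10 genes are named. All 24 relatives are named too. Pathway genes were named where called, with the exceptions below. Gfra1, Ret, pathway genes present in every list and single markers were named after their values were seen. Some genes of the pathway list are not reported here by name. Gfra1 and Ret stand on 2 lists, as does Thy1. The genes and lists were chosen with earlier results of these data known. Alternatives were the better-scoring 50% of each list, equal list length, a minimum width, overlap and strand rules, joined entries, other rank scales, a peak in 2 of 3 libraries, a score limit, the replicate block and leaving out each library.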

Additional observations from a re-analysis of the deposited data

How the results depend on the processing

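The count of SSC-only genes among the 10 was 7 or 6 under each of the 12 alternatives tried. It was 6, without Sall4, in the better-scoring 50% of each list, at equal list length and with scores of at least 100. The shares of genes with a peak called SSC-only under these settings were 10.3%, 7.03% and 9.16%, in that order. The count was 7 when any 1 library was left out and when a peak in 2 of 3 libraries was asked for. These settings only loosen the rule, so the count could not fall under them. The share of all genes so called rose from 11.4% to between 15.0% and 18.1% without 1 SSC library. With a peak in 2 of 3 libraries it rose to 22.7%. No alternative made any of the 10 iNSC-only. SSC-only regions numbered 10 of 31, against 5.59% of all regions, and 8 of 26 at equal list length. The share of all regions at equal list length was not computed, so the 8 cannot be set against it. Directions that turned were those of Foxo1 alone. Its number of peaks, SSC minus iNSC, was -0.67, and 0.67 in the better-scoring 50%. Its covered bases turned from -106 to 1007 in the better-scoring 50% and to 252 without SSC replicate 1, within a range of -317 to 252 when any 1 library was left out. The cause was not tested. Deviations of same-numbered lists had correlations of -0.033, -0.055 and 0.12 over genes. Those of other-numbered lists ran from -0.128 to 0.160, a range that holds all the same-numbered values. Whether the numbers pair the samples cannot be told from these values. With the replicate block the differences in number of peaks are the same (2.67 for Zbtb16, 6.33 for Taf4b) and the smallest exact p is 0.25, so no call could be made. Depth is unknown, which limits every absence.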
